A study of Mus musculus with 2 samples.

Results

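The 45 genes described here are the parts of the Wnt pathway: the enzymes that make and release Wnt proteins, the ligands, their receptors, the cytoplasmic transducers, the Tcf transcription factors and the feedback genes. They were chosen by symbol from a list, and 37 of them have a row among the 14500 gene symbols of the table. The other 8, namely Wnt3, Wnt4, Wnt7b, Wnt8a, Fzd1, Ror1, Sp5 and Dkk1, had no level to compare. They enter only the counts of promoter windows below, where a window was found. No row of the table has a mean level under 8, so the 37 describe listed genes only and not the whole pathway.

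RNA was sequenced from 46C cells, a mouse embryonic stem cell line with a fluorescent reporter in the Sox1 locus, that had received a Gbx2 vector (the library titled PB-Gbx2) or the empty vector (the library titled PB). The promoter of the vector and whether a culture was 1 clone are not stated in the labels. Both cultures grew on gelatin in serum medium with LIF, at passages 21 to 24 per the labels; the names of the table's columns end in P3, which the labels do not explain. Each group has 1 library, so no value has a replicate error and no test between the vectors was possible. The source names in the labels are swapped relative to the titles, and groups follow the titles, which match the column names of the table; with the source names instead, every direction below would turn around. Gbx2, the targeted homeobox gene, stood at 1178 in PB-Gbx2 and 345 in PB, 3.41-fold higher, the direction that the titles give; reads of the vector and of the cells' own gene are not separated.

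Wnt proteins are secreted lipid-modified signals. Porcupine acylates them in the endoplasmic reticulum, Wntless carries them to the cell surface, and Frizzled receptors with Lrp5 or Lrp6 pass the signal through Dishevelled to halt the destruction of beta-catenin, which then works with Tcf factors in the nucleus. In mouse embryonic stem cells this route supports self-renewal, largely by relieving repression by Tcf7l1. Other Wnt signals run through Ror2 or Ryk without beta-catenin.

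Levels are the authors' normalized values, whole numbers with the same sorted distribution in both libraries, so they compare 1 gene between libraries but not 1 gene with another. Ratios are log2 of PB-Gbx2 over PB on level + 1, and a gene was called at 2-fold. Across all genes, 5.14% reached this threshold on the higher side in PB-Gbx2 and 5.26% on the lower side, 10.4% together. Because low genes scatter more, each ratio was also set beside the middle 95% of the ratios of the 725 genes of similar mean level (their range, below), which leaves 5.23% of all genes outside. Percentiles give a gene's place among these 725, from lowest to highest ratio.

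Among the 37 members, 3 were at least 2-fold higher in PB-Gbx2 (Wnt5a, Wls and Fzd9) and 1 was at least 2-fold lower (Porcn). The other 33 differed by less than 2-fold. Together these 4 are 10.8% of the 37, beside 10.4% of all genes. At a 3-fold threshold the same 4 genes were called, beside 3.46% of all genes, and with a level of at least 100 in 1 library or both, 3 of 28 members (10.7%) were past 2-fold, beside 4.83% of all genes so filtered. With 3 or 4 genes behind them, these shares are a description of single genes and not of the list. The median log2 ratio of the 37 was 0.10, against 0 for all genes, with 24 members above 0, 12 below and 1 at 0. The 4 genes past 2-fold and Fzd7 were the 5 members outside the middle 95% of genes of similar level. These 5 belong to the steps of acylation, transport, ligand and receptor. Each co-receptor, Dishevelled, destruction complex, Tcf, feedback and Sfrp gene with a row lay inside that range. Only 5.23% of all genes lay outside it, so few would be outside in any group of this size. The steps are therefore described and not contrasted.

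No promoter window was found for Porcn and Wnt5a, so the stretches just upstream are shown for the other 3 of these 5 genes. They are RefSeq promoter windows on GRCm38.p6, cut to the 250 bases before the annotated start and written 5′ to 3′ on the gene's strand. Capitals mark the GC box GGGCGG or its reverse complement CCGCCC, a letter match to sites of the Sp and Kruppel-like factor families. Wls lies on the plus strand at chr3:159839400-159839649, Fzd9 on the minus strand at chr5:135251048-135251297 and Fzd7 on the plus strand at chr1:59481897-59482146.
Wls: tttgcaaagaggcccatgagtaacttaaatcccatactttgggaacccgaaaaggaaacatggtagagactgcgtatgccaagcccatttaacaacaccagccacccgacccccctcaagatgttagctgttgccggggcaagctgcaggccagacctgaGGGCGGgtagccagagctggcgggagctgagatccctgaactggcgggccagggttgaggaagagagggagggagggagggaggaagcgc
Fzd9: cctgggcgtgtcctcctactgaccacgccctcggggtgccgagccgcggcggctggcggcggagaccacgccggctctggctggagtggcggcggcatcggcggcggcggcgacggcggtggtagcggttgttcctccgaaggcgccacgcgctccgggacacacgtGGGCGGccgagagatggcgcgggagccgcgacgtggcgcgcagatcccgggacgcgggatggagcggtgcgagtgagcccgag
Fzd7: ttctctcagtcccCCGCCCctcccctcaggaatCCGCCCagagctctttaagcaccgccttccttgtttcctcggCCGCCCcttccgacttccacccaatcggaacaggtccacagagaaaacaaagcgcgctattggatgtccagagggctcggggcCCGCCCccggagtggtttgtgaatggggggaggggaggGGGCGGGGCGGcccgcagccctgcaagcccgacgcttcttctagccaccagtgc
For Fzd9 the bases after the start were found in an annotated transcript on this strand, and for Wls and Fzd7 they were not found on either strand, so there the strand rests on the RefSeq table alone. The Wls and Fzd9 stretches each hold 1 GC box, and the Fzd7 stretch holds 6, counting those that overlap. Their GC content is 58.0% for Wls, 76.4% for Fzd9 and 65.2% for Fzd7. Of the 45 members, 29 matched a window, some without a row, such as Sp5, among them. A GC box was found in 27 of the 38 windows of these 29 (71.1%) and in 32.7% of all 32851 windows. The median GC content was 65.2% for the members' windows and 52.4% for all windows. The Tcf/Lef site CTTTGAT (or ATCAAAG) was found in 2 of the members' windows, those of Sp5 and of 1 start of Wnt5b, and in 3.21% of all windows. The homeodomain core TAATTA was found in 0 of the 38, against 4.84% of all windows. These are letter matches only and say nothing about binding.

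**Figure D1:**
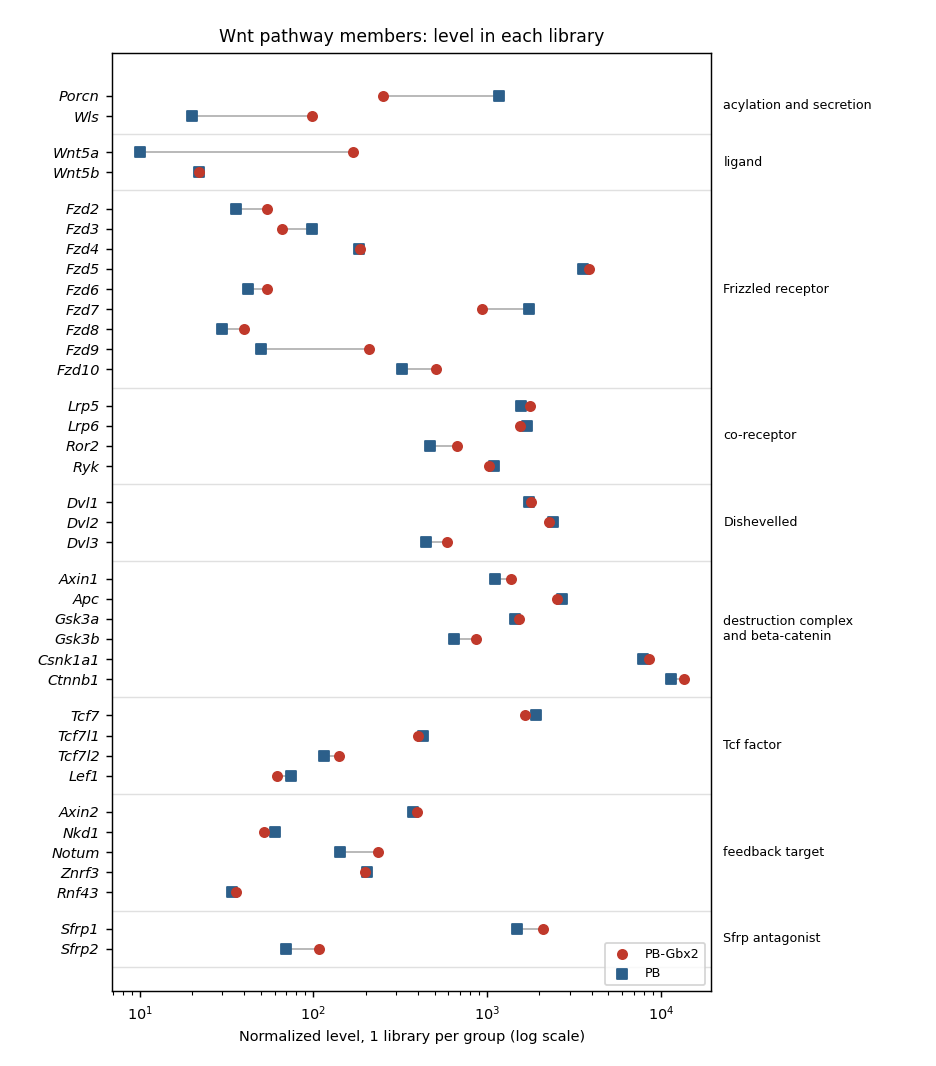
Normalized level of each of the 37 members (log axis) in PB-Gbx2 (red circles) and PB (blue squares), 1 library per group, ordered by pathway step; a grey line joins the values of a gene. The widest gaps are those of Wnt5a (170 in PB-Gbx2, 10 in PB), Wls (98 in PB-Gbx2, 20 in PB), Porcn (251 in PB-Gbx2, 1168 in PB) and Fzd9 (208 in PB-Gbx2, 50 in PB), while most pairs in the lower rows nearly touch.

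The pair of genes at the secretory step differed in opposite directions. Porcn, the acyltransferase that attaches the lipid to Wnt proteins, stood at 251 in PB-Gbx2 and 1168 in PB. It was 4.65-fold lower, with a log2 ratio of -2.21 where genes of similar level spread from -0.92 to 0.77, and lay at percentile 0.069 among them. The authors' deposited table lists Porcn with an adjusted p of 0.000372; in it, 2 of the 37 members (Porcn and Wnt5a) and 0.234% of all rows are under 0.05. These p-values rest on 1 library per group. Wls, the carrier that takes acylated Wnt proteins to the surface, stood at 98 in PB-Gbx2 and 20 in PB, 4.9-fold higher (log2 ratio 2.24). Its level was low, and genes of similar level spread from -1.69 to 1.91, which places Wls just beyond that range at percentile 98.8. In the authors' deposited table Wls has an adjusted p of 1.

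Among ligands, Wnt5a, best known for signalling without beta-catenin, stood at 170 in PB-Gbx2 and 10 in PB. The levels were 17-fold apart, with a log2 ratio of 3.96 against a spread of -1.38 to 1.36 for genes of similar level (percentile 99.9). The authors' deposited table lists Wnt5a with an adjusted p of 0.0421. Wnt5b, its closest relative, stood at 22 in both libraries. Of 13 further ligands on a list of other pathway genes, 4 had a row. Wnt11 stood at 39 in PB-Gbx2 and 13 in PB, and Wnt9a at 130 in PB-Gbx2 and 64 in PB, both at least 2-fold higher. Wnt6 stood at 76 in PB-Gbx2 and 48 in PB, and Wnt16 at 8 in PB-Gbx2 and 16 in PB (log2 ratio -0.92 on level + 1). All 4 lay within the range of their level, unlike Wnt5a. Of the exon bases of Wnt5a, 4.58% are shared with an antisense gene, Gm2670.

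Wnt5a is also made by fibroblasts and by early mesoderm, so markers of those cells are given beside it. In a bulk culture, more cells of a type and more RNA per cell cannot be told apart. Of 12 fibroblast markers 8 had a row, and the 7 other than Fn1 summed to 3338 in PB-Gbx2 and 4416 in PB. Fn1 alone stood at 70328 in PB-Gbx2, the shared top value of the table, and 26866 in PB. Of the 7 without Fn1, 5 lay below 0 and 2 above. Col1a1, a defining fibroblast collagen, stood at 36 in PB-Gbx2 and 132 in PB, and S100a6 at 143 in PB-Gbx2 and 435 in PB. Both were at least 2-fold lower. Col1a2 (18 in PB-Gbx2, 9 in PB) and Col5a1 (743 in PB-Gbx2, 650 in PB) were higher in PB-Gbx2, neither called at 2-fold on level + 1. Col3a1, Postn, Lum and Dcn had no row. Of 10 primitive streak and mesoderm markers 5 had a row, and they summed to 637 in PB-Gbx2 and 252 in PB, with Kdr at 226 in PB-Gbx2 and 24 in PB and the defining marker T at 24 in PB-Gbx2 and 6 in PB. Snai1 (154 in PB-Gbx2, 76 in PB) was also at least 2-fold higher. Eomes (215 in PB-Gbx2, 128 in PB) was higher but not called, and Tbx6 stood at 18 in both libraries. Of these 5, only Kdr lay outside the range of its level. Endoderm markers (6 of 10) summed to 2516 in PB-Gbx2 and 1699 in PB, of which Lama1 was 2121 in PB-Gbx2 and 1489 in PB. All 6 lay above 0 and within the range of their level. Gata6 (45 in PB-Gbx2, 18 in PB) and Cxcr4 (101 in PB-Gbx2, 45 in PB) were at least 2-fold higher. Neural markers (5 of 8) summed to 2096 in PB-Gbx2 and 2612 in PB. Within the neural list, Sox1, whose locus carries the reporter, stood at 56 in PB-Gbx2 and 10 in PB, and Nes at 733 in PB-Gbx2 and 405 in PB, against the direction of the sum. Tubb3 (756 in PB-Gbx2, 1248 in PB), Elavl3 (427 in PB-Gbx2, 756 in PB) and Map2 (124 in PB-Gbx2, 193 in PB) were lower. The median log2 ratio of the list was -0.63. Sox1, Nes and Elavl3 lay outside the range of their level, and Tubb3 and Map2 within it. Trophectoderm markers (5 of 8) summed to 2886 in PB-Gbx2 and 2404 in PB, of which Tfap2c was 2439 in PB-Gbx2 and 1441 in PB, and their median log2 ratio was -1.14. The keratins Krt7 (4 in PB-Gbx2, 43 in PB), Krt8 (225 in PB-Gbx2, 532 in PB) and Krt18 (164 in PB-Gbx2, 363 in PB) were at least 2-fold lower. Esx1 (54 in PB-Gbx2, 25 in PB) was at least 2-fold higher. The part of the mesoderm and endoderm markers in the Wnt5a difference was not tested. All 10 stem cell markers had a row, and they summed to 127378 in PB-Gbx2 and 90706 in PB. Of these, 8 lay above 0 and 2 below, namely Tfcp2l1 (11892 in PB-Gbx2, 12900 in PB) and Utf1 (3430 in PB-Gbx2, 3843 in PB). Pou5f1 (10597 in PB-Gbx2, 9446 in PB) and Sox2 (10302 in PB-Gbx2, 9894 in PB) were close to equal. Nanog (19872 in PB-Gbx2, 8918 in PB), Zfp42 (16671 in PB-Gbx2, 8320 in PB) and Klf4 (10924 in PB-Gbx2, 4701 in PB) were at least 2-fold higher and outside the range of their level.

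**Figure D2:**
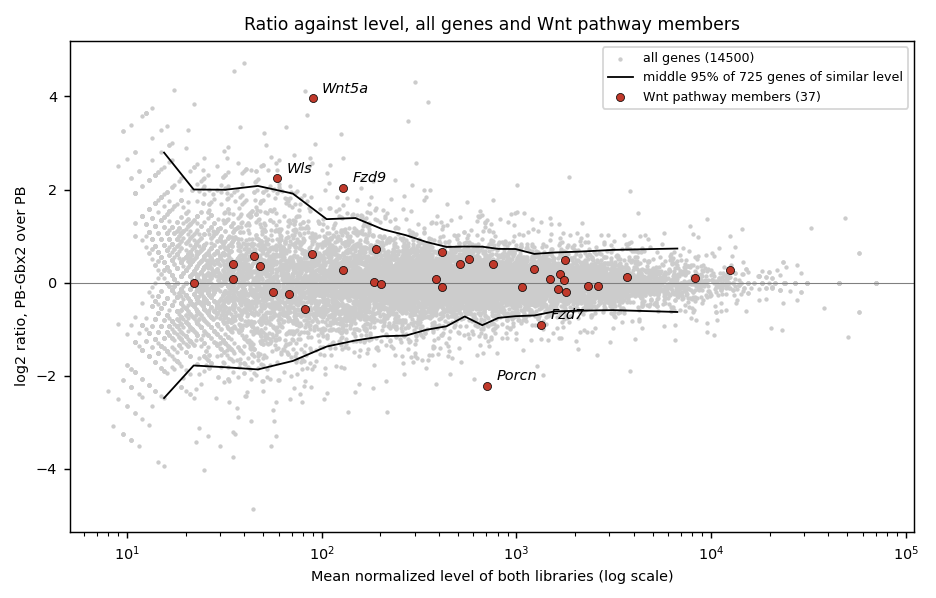
Points are genes, with the log2 ratio (PB-Gbx2 over PB, y axis) against the mean normalized level of both libraries (log x axis), for all 14500 genes (grey) and the 37 members (red). Black lines bound the middle 95% of genes in each of 20 groups by level. Wnt5a, Wls and Fzd9 lie above the lines and Porcn and Fzd7 below.

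The Frizzled receptors gave ratios in both directions. Fzd9 stood at 208 in PB-Gbx2 and 50 in PB, 4.16-fold higher (log2 ratio 2.03, spread of genes of similar level -1.25 to 1.39, percentile 99.5). Fzd7, regarded as a main Frizzled of pluripotent stem cells, stood at 936 in PB-Gbx2 and 1751 in PB, 1.87-fold lower. That did not reach 2-fold, but its log2 ratio of -0.90 lay beyond the spread of -0.71 to 0.62 at this higher level (percentile 1.17). The authors' deposited table gives adjusted p-values of 0.585 for Fzd9 and 0.75 for Fzd7.

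Fzd10 stood at 506 in PB-Gbx2 and 322 in PB (1.57-fold higher, percentile 95.9), within the range of its level. Fzd5 stood at 3851 in PB-Gbx2 and 3569 in PB, and Fzd4 at 186 in PB-Gbx2 and 184 in PB, both close to 1-fold. The remaining receptors were low in both libraries. Fzd2 stood at 54 in PB-Gbx2 and 36 in PB, Fzd6 at 54 in PB-Gbx2 and 42 in PB, Fzd8 at 40 in PB-Gbx2 and 30 in PB, and Fzd3 at 66 in PB-Gbx2 and 98 in PB. In all, 7 of the 9 listed Frizzled genes lay above 0 and 2 below, with a median log2 ratio of 0.36.

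To compare receptors with each other, levels were divided by the length of the longest annotated transcript. This assumes that the deposited levels are not already scaled by length, which is not given in the sources used here. On this per-kb scale the summed Frizzled level was 1077 in PB-Gbx2 and 1083 in PB. Fzd5 made up 51.7% of that sum in PB-Gbx2 and 47.7% in PB, and came first in both. Fzd7 came second in both, with 19.2% in PB-Gbx2 and 35.7% in PB. Fzd10 made up 14.5% in PB-Gbx2 and 9.15% in PB, and Fzd9 8.43% in PB-Gbx2 and 2.01% in PB. The share of Fzd7 was smaller in PB-Gbx2 and those of Fzd5, Fzd10 and Fzd9 were larger, while the sums differed little. With the median transcript length in place of the longest, the order of the top 3 was the same in both libraries, and the Fzd7 share was 15.1% in PB-Gbx2 and 28.7% in PB. Of the exon bases of Fzd5, 17.8% are shared with Gm38058 on the opposite strand, so reads of the 2 genes cannot be told apart there.

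**Figure D3:**
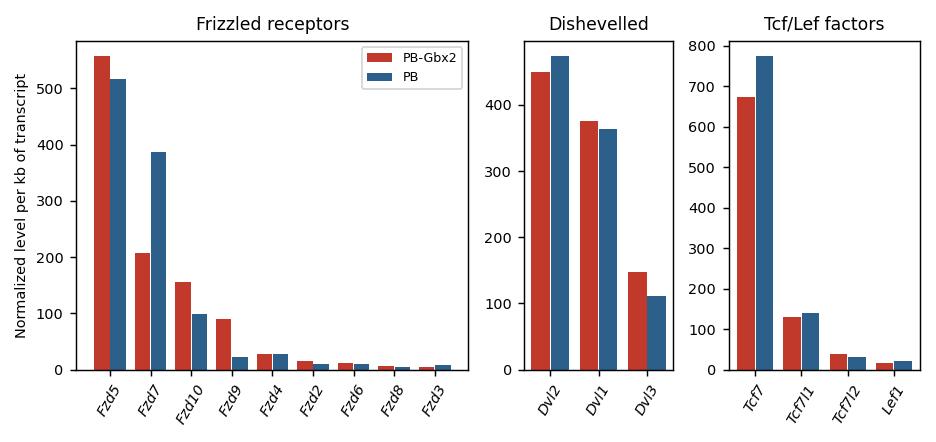
Normalized level per kb of the longest transcript for the Frizzled receptors, Dishevelled genes and Tcf/Lef factors, in PB-Gbx2 (red, left bar) and PB (blue, right bar), 1 library per group; each panel has its own y axis from 0. Fzd7 is the tall bar that is lower in PB-Gbx2, and Fzd9 the small one that is higher, whereas the Dishevelled and Tcf/Lef pairs are of similar height.

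The co-receptors differed little. Lrp5 stood at 1770 in PB-Gbx2 and 1560 in PB, and Lrp6, which pairs with Frizzled in the same way, at 1553 in PB-Gbx2 and 1698 in PB. Ror2, a receptor kinase for Wnt5a, stood at 668 in PB-Gbx2 and 472 in PB (1.42-fold higher, percentile 91.7), and Ryk, a further Wnt receptor, at 1031 in PB-Gbx2 and 1102 in PB. None of these 4 left the range of its level.

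The Dishevelled genes, which relay the signal from Frizzled, differed by at most 1.32-fold (Dvl3). Dvl1 stood at 1792 in PB-Gbx2 and 1734 in PB, Dvl2 at 2267 in PB-Gbx2 and 2384 in PB, and Dvl3 at 585 in PB-Gbx2 and 444 in PB. Per kb, under the same assumption about length, Dvl2 had the highest level of the 3 and Dvl3 the lowest in both libraries. Of the annotated exon bases of Dvl2, 18.3% are shared with Acadvl on the opposite strand, and the labels do not say that strand was used, so reads of the 2 genes cannot be told apart there.

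The destruction complex had a median log2 ratio of 0.18 over its 6 listed genes, beta-catenin included, with 5 above 0 and 1 below. The scaffold Axin1 stood at 1366 in PB-Gbx2 and 1109 in PB. The second scaffold Apc stood at 2544 in PB-Gbx2 and 2695 in PB. Among the kinases that mark beta-catenin for destruction, Gsk3b stood at 859 in PB-Gbx2 and 648 in PB (1.33-fold higher, the largest ratio of the 6), Gsk3a at 1528 in PB-Gbx2 and 1450 in PB, and Csnk1a1 at 8530 in PB-Gbx2 and 7954 in PB. Ctnnb1, which encodes beta-catenin itself, stood at 13630 in PB-Gbx2 and 11378 in PB, 1.20-fold higher. Of the exon bases of Ctnnb1, 14.6% are shared with Ulk4 on the opposite strand, and of those of Gsk3a, 28.3% with an antisense gene. The levels of all 6 genes are given without separating such reads. These are transcript levels, and the protein, whose stability the complex controls, was not measured.

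Of the Tcf factors, Tcf7 stood at 1662 in PB-Gbx2 and 1912 in PB, and Tcf7l1, the repressor of the family in these cells, at 398 in PB-Gbx2 and 428 in PB. Tcf7l2 stood at 140 in PB-Gbx2 and 116 in PB, and Lef1 at 62 in PB-Gbx2 and 74 in PB. The median log2 ratio of the 4 was -0.15, and the largest of their ratios was 1.21-fold (Tcf7l2). Per kb, under the same assumption about length, the order Tcf7, Tcf7l1, Tcf7l2, Lef1 was the same in both libraries and with either transcript length.

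Of the feedback genes, which the pathway itself induces and which restrain it, 4 of 5 differed by at most 1.15-fold. Axin2, the most widely used transcriptional readout of beta-catenin signalling, stood at 396 in PB-Gbx2 and 373 in PB (1.06-fold higher, percentile 56.6). Znrf3 and Rnf43, ubiquitin ligases that remove Frizzled from the membrane, stood at 198 in PB-Gbx2 and 203 in PB for Znrf3 and at 36 in PB-Gbx2 and 34 in PB for Rnf43. Nkd1, an inhibitor that binds Dishevelled, stood at 52 in PB-Gbx2 and 60 in PB. Notum, the esterase that removes the lipid Porcn adds, stood at 236 in PB-Gbx2 and 142 in PB, 1.66-fold higher, but inside the spread of -1.15 to 1.14 for genes of its level (log2 ratio 0.73, percentile 92.6). Of Notum's exon bases, 29.4% are shared with the antisense gene Notumos.

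The secreted antagonists Sfrp1 and Sfrp2, which bind Wnt proteins outside the cell, were both on the higher side. Sfrp1 stood at 2089 in PB-Gbx2 and 1484 in PB (1.41-fold higher, percentile 94.7), and Sfrp2 at 108 in PB-Gbx2 and 70 in PB (1.54-fold higher, percentile 84.8). Neither reached 2-fold or left the range of its level.

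**Figure D4:**
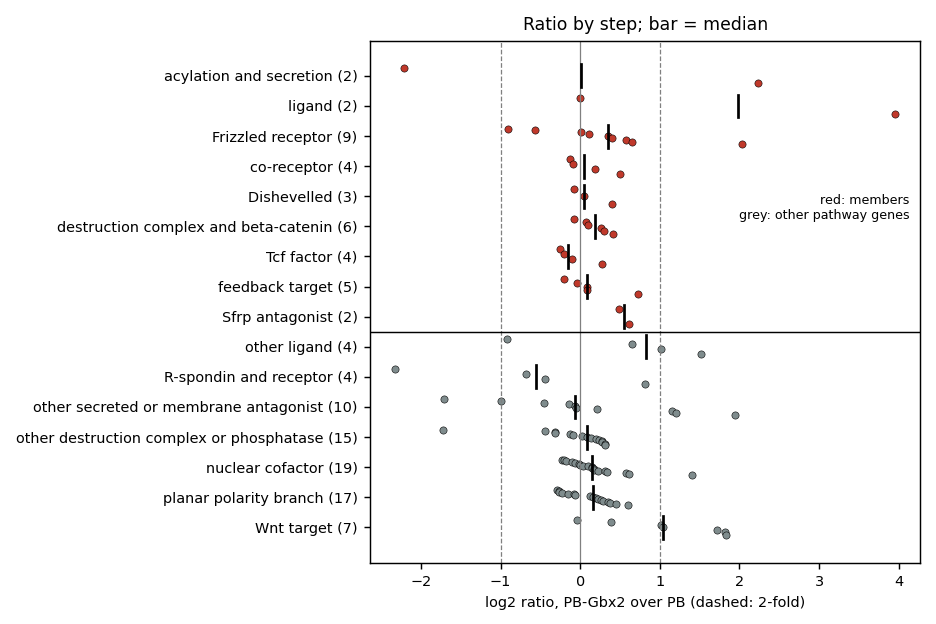
Each point is the log2 ratio (PB-Gbx2 over PB) of 1 gene with a row, by pathway step, for the members (red) and for other pathway genes (grey); vertical bars are medians, dashed lines 2-fold, and numbers in parentheses the genes per step. The members past 2-fold sit in the 3 top rows, and the rows from the co-receptors to the Sfrp antagonists stay between the dashed lines.

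A list of 102 other pathway genes was read for comparison, and 76 of them had a row. Of these, 11 were past 2-fold on the higher side in PB-Gbx2 and 4 on the lower side, with a median log2 ratio of 0.15, beside the 5.14% and 5.26% of all genes. Of the 61 with a level of 100 or more in at least 1 library, 6 were past 2-fold on the higher side and 0 on the lower, against 2.46% and 2.37% of all genes so filtered.

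The R-spondins and their receptors, which raise Wnt responses by countering Znrf3 and Rnf43, gave no common direction. Lgr4 stood at 660 in PB-Gbx2 and 1062 in PB (1.61-fold lower, percentile 3.38), Lgr6 at 122 in PB-Gbx2 and 69 in PB, Rspo1 at 50 in PB-Gbx2 and 68 in PB, and Rspo4 at 4 in PB-Gbx2 and 24 in PB. Antagonists went both ways. Kremen2, a receptor for Dickkopf proteins, stood at 111 in PB-Gbx2 and 28 in PB, Apcdd1, a membrane inhibitor, at 241 in PB-Gbx2 and 108 in PB, and Sfrp5 at 68 in PB-Gbx2 and 29 in PB. On the lower side, Dkkl1, a Dickkopf relative, stood at 27 in PB-Gbx2 and 91 in PB, and Wif1, named because it too passed 2-fold, at 8 in PB-Gbx2 and 17 in PB. Kremen2, Apcdd1 and Dkkl1 lay just outside the range of their level. Sfrp5, Wif1, Rspo4, Rspo1, Lgr4 and Lgr6 lay within it.

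Few genes at the inner steps of the wider list passed 2-fold. Of all genes 10.4% did, and 4.83% of those with a level of 100 or more in at least 1 library. Most of the genes at these steps had such a level (14 of 15, 18 of 19 and 14 of 17 in the order below). The counts are therefore a description only. Of 15 further genes listed under the destruction complex or phosphatases, only Apc2 passed 2-fold (12 in PB-Gbx2, 42 in PB). The next largest ratios there were those of Tnks, a tankyrase that destabilises axin (912 in PB-Gbx2, 1238 in PB), Usp34 (2111 in PB-Gbx2, 2634 in PB) and Csnk1g1 (1020 in PB-Gbx2, 820 in PB). Of 19 nuclear cofactors only Pygo1 passed it (28 in PB-Gbx2, 10 in PB). Crebbp (682 in PB-Gbx2, 446 in PB), Bcl9l (412 in PB-Gbx2, 276 in PB) and Pygo2 (1747 in PB-Gbx2, 1380 in PB) followed it. None of 17 genes listed under the planar polarity branch passed it. That list is a loose grouping that also holds Dact genes and Cxxc5. The widest ratios in it were those of Prickle2 (134 in PB-Gbx2, 88 in PB), Gpc4 (258 in PB-Gbx2, 189 in PB), Prickle3 (284 in PB-Gbx2, 218 in PB) and Dact2 (926 in PB-Gbx2, 728 in PB).

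Of 7 genes with a row that are often described as Wnt targets outside the feedback group, 5 were at least 2-fold higher, where 5.14% of all genes were. They were the cyclin Ccnd1 (1380 in PB-Gbx2, 670 in PB), Cdx1 (122 in PB-Gbx2, 34 in PB), Cd44 (32 in PB-Gbx2, 9 in PB), T, which also counts as a mesoderm marker above, and Tbx3 (6107 in PB-Gbx2, 3029 in PB), named because it too passed 2-fold and also a naive pluripotency factor. Ccnd1 (percentile 99.0) and Tbx3 (percentile 98.8) lay outside the range of their level, and the other 3 within it. At the low levels of those 3, 2-fold calls are more common than 5.14%. Of the 725 genes of similar level, 79 were at least 2-fold higher for Cdx1, 85 for Cd44 and 175 for T. The list was also chosen with earlier results of these data known, so the count is a description only. Myc stood at 654 in PB-Gbx2 and 674 in PB, and Bambi at 188 in PB-Gbx2 and 144 in PB. Myc and Bambi were named to complete the list of 7.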

How the data were processed

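Both libraries were made from Trizol-extracted RNA with a TruSeq RNA kit, per the labels' protocols. Per the submitters' processing notes, STAR and mm9 were used. Versions, the annotation and how reads were counted: not given in the sources used here. For each gene and library, the authors deposited 1 level, a normalized score rounded to whole numbers: the sorted values of both columns are equal in all 14501 rows, as after quantile normalization, so differences in overall distribution cannot be seen and read depth is unknown. The authors' deposited ratio (fold) and its log2 run PB over PB-Gbx2, and their p-value and adjusted p-value rest on 1 library per group. The 2 rows that share a symbol were summed, leaving 14500 symbols.

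Ratios (PB-Gbx2 over PB) were taken as differences of log2(level + 1), a scale that understates changes at low levels; fold values in the text are ratios of levels. Genes of similar level are those in the same of 20 groups of equal size by mean level. Lengths and exon overlaps came from GENCODE M21 (all 37 members matched), and promoter windows from RefSeq; of the 38 windows of members, 28 had the bases after the start in a GENCODE transcript on the gene's strand and 0 on the opposite strand. Calls and ratios were tested on simulated data with large planted changes, no low levels and less scatter than here. That checks the computation only and not how reliable a call is. Members and lists were chosen with earlier results of these data known. Every member was named, and of the other pathway genes up to 4 per role with the largest absolute ratio; Tbx3, Wif1, Myc and Bambi were added after their values were seen. Alternatives were pseudocounts of 0.1 and 5, minimum levels of 10 and 100, 2 rescalings, thresholds of 1.5-fold and 3-fold, 10 groups by level, another transcript length and the removal of members that share exon bases with another gene. Python 3.11.15, numpy 2.4.6 and pandas 2.3.3 were used.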

Additional observations from a re-analysis of the deposited data

How the results depend on the processing

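With a 1.5-fold threshold 6 members were higher and 2 lower in PB-Gbx2 (all genes: 1684 higher and 1770 lower), and with a 3-fold threshold 3 members were higher and 1 lower, as at 2-fold, while 4 other pathway genes were higher and 3 lower (all genes: 265 higher and 236 lower). With a minimum level of 100 in either library, 2 members were higher, since Wls (98 in PB-Gbx2, 20 in PB) was left out, and 1 lower; it gave 6 other pathway genes higher and 0 lower, and 269 and 259 of all genes. The member counts at 2-fold and the medians of both lists kept their direction, with counts within 1.5 times, under pseudocounts of 0.1 and 5, minimum levels of 10 and 100 and both rescalings; the deposited values left little to rescale, with a median factor of 1 and a trimmed mean log2 ratio of 1.6e-05, which still lowered the count of all genes on the higher side to 734. Leaving out the 12 members that share exon bases with another gene, chosen after seeing the data, gave 2 higher, without Wnt5a, and 1 lower, with a median of 0.10. Of 111 ratios of single members under other settings, 0 moved by over 1.5-fold. With the median transcript length, 17 of 37 levels per kb moved by over 1.5 times. No paired analysis was possible because there is only 1 library in either group, and for the same reason none was left out. Read depth is not known, and 9 of the 37 members stayed under a level of 100 in both libraries.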
